A study of Homo sapiens with 9 samples.

Results

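Genes that carry out DNA replication and mitosis were followed across HL-60 clone 15 cells in which a construct for RhoH or for GFP was present. Their list holds 48 genes, given by symbol, and 38 of them had a named probe set (the group of array probes summarised as 1 value) among the 14778 named genes of the arrays. Each of the 38 had 1 such probe set, so no choice between probe sets was needed for them. The other 10 (POLA1, PRIM1, RFC4, BRCA1, CENPE, CENPF, NUF2, TPX2, ASPM and DLGAP5) are not analysed here. HL-60 is an established human promyelocytic leukaemia line, and its clone 15 serves as a model of eosinophil precursors. All cells carried a lentiviral construct whose expression is switched on by 4-hydroxytamoxifen (4-OHT), the active metabolite of tamoxifen. The 9 arrays fall into 3 groups of 3 biological replicates, which are RhoH cells without 4-OHT (uninduced RhoH), RhoH cells with 100 nM 4-OHT (induced RhoH) and GFP cells with 100 nM 4-OHT (GFP). GFP cells without 4-OHT were not analysed here, so the drug, the construct and the transduced population cannot be told apart in a comparison of uninduced RhoH with GFP. Between induced RhoH and GFP, the construct and the transduced population cannot be told apart. Between uninduced and induced RhoH, the drug itself and the induction of RhoH cannot be told apart.

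Cells copy their DNA in S phase and divide in M phase. Replication starts when CDC6 helps load the ring of MCM2 to MCM7 onto origins, after which MCM10, CDC45 and the GINS proteins turn that ring into a moving helicase and the clamp PCNA holds the polymerases to the template. In mitosis, CDK1 with its cyclins and the PLK1 and Aurora kinases condense the chromosomes and build the spindle, the kinetochore complex around NDC80 attaches chromosomes to it, and the checkpoint kinases BUB1 and TTK hold back CDC20 until all are attached. Genes of the first kind are known targets of E2F factors, and many of the second kind are controlled through CCAAT boxes and the cell cycle genes homology region (CHR). Promyelocytic cells in culture divide continuously, and their differentiation is accompanied by withdrawal from the cycle.

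Promoter sequences are shown for the 4 members that passed the test in any comparison (NDC80, NUSAP1, MKI67 and TOP2A) and for 2 that did not, MCM3 for replication and CDC20 for mitosis, which were picked for display after their values were seen. They are RefSeq sequences of GRCh38.p14, 275 bases long, of which 250 lie before the annotated start and 25 after it, written 5′ to 3′ on the strand of the gene. Capitals mark every match on either strand to an E2F word (TTTCCCGC, TTTGGCGC, TTTCGCGC or TTTGCCGC), a CHR word (TTTGAA or TTCGAA) or CCAAT. The windows are chr18:2571307-2571581, plus strand (NDC80), chr15:41332631-41332905, plus strand (NUSAP1), chr10:128126399-128126673, minus strand (MKI67), chr17:40417872-40418146, minus strand (TOP2A), chr6:52284718-52284992, minus strand (MCM3) and chr1:43358731-43359005, plus strand (CDC20).
NDC80: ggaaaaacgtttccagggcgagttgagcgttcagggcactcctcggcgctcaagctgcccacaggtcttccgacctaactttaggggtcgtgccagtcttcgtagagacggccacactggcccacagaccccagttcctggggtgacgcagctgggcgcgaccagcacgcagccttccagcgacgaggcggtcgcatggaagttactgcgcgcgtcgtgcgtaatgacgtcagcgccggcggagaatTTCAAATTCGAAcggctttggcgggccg
NUSAP1: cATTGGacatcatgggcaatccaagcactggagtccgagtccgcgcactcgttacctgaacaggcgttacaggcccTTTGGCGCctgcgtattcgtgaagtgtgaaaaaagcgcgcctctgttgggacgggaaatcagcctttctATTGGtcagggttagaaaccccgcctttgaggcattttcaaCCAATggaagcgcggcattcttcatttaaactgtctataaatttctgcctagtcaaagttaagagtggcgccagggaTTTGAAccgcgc
MKI67: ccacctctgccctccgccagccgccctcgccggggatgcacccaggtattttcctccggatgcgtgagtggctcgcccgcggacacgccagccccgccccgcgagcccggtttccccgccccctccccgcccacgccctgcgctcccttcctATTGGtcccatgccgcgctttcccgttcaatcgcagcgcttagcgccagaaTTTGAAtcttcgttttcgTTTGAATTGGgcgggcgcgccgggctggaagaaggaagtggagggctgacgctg
TOP2A: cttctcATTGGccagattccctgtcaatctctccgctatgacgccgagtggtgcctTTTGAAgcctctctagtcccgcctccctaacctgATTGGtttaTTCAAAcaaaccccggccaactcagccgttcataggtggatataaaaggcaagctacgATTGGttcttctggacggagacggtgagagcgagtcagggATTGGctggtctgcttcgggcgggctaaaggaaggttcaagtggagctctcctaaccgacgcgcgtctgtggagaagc
MCM3: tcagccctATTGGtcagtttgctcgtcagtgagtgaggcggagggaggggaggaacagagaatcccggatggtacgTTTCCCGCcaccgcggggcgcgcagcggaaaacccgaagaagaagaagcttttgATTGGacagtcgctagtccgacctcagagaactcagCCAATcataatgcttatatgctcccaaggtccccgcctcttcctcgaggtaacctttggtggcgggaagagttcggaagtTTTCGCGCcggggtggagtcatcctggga
CDC20: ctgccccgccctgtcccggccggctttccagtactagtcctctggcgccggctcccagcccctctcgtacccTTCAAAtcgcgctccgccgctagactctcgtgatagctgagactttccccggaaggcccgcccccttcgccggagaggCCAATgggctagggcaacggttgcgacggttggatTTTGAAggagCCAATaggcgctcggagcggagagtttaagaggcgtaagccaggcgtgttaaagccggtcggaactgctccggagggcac

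The full windows of 300 bases, which reach 50 bases past the start, were searched in the 34 members present in the promoter table, with the first listed window where a gene had several (7 members). MCM4, MCM5, AURKA and TTK had no entry. An E2F word was found in 10 of 15 replication members (66.7%) and 3 of 19 mitosis members (15.8%), against 3.33% of all 27305 promoters. A CHR word was found in 1 of 15 replication members, MCM6 (6.67%), and 14 of 19 mitosis members (73.7%), against 16.6% of all promoters. CCAAT was found in 12 of 15 (80.0%) and 16 of 19 (84.2%), against 35.7% of all promoters. Each of the 4 members with a call held a CHR word, and so did CDC20 and other mitosis members without a call. In NDC80, which held no CCAAT, the 2 CHR words begin at positions -3 and 4 relative to the start and so stand across it. In NUSAP1 the CHR word begins at position 14, and in MKI67 at -47 and again at -29. These matches are descriptions of letters and not of binding.

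The arrays measured total RNA, and the deposited values are log2 signals for which no probe's level was set against another's. Array medians lay between 5.43 and 5.55, and array pairs within a group correlated across probe sets at 0.974 to 0.996. RHOH, the gene of the construct, was at 5.21 ± 0.06 (log2 signal, SD, n = 3) for the label uninduced RhoH, 5.59 ± 0.14 for induced RhoH and 5.93 ± 0.02 for GFP. The highest mean under the GFP label goes against the labels. Every GFP array (5.9, 5.94 and 5.94) lay above every induced RhoH array (5.6, 5.73 and 5.45, replicates 1 to 3). Induced RhoH minus GFP was -0.33 (interval -0.53 to -0.13), which did not pass the threshold after adjustment over all genes (limma adjusted p = 0.0717). With 4-OHT, RHOH rose in RhoH cells by 0.38 (limma adjusted p = 0.0451), the direction that the labels give. It was lower in uninduced RhoH than in GFP by -0.72 (limma adjusted p = 0.00042). These signals lie near the array medians, and where the probes sit relative to the construct is not known. Group names from here on are the labels of the libraries, and each direction rests on them. Promyelocyte genes were high on all arrays, with the myeloperoxidase gene MPO at 13.39 ± 0.03, 13.12 ± 0.06 and 12.20 ± 0.06 in the same order. All 6 measured markers of 9 listed (MPO, AZU1, PRTN3, CTSG, MYB and GFI1) were higher in both RhoH groups than in GFP, by 0.49 to 1.69 in induced and 0.58 to 2.47 in uninduced RhoH on the log2 scale. The part of that difference in the results on replication and mitosis genes was not tested. The replicate 1 arrays of both RhoH groups and induced RhoH replicate 3 lay farthest from their group means over all genes (SD up to 0.206, against at most 0.162 for the other 6).

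With 4-OHT, most replication and mitosis genes in RhoH cells stayed near their uninduced level. NDC80, which encodes the kinetochore protein that grips spindle microtubules, and NUSAP1, which encodes a microtubule-bundling protein of the spindle, were higher, and no member was lower. The share called, 2 of 38 (5.26%), was near that of all genes tested (3.78%, with 3.02% higher and 0.751% lower), by limma at an adjusted p under 0.05. The median difference of the 38 members was 0.03 on the log2 scale against 0.00 for all genes, and without adjustment 4 members were higher (all genes 8.58%) and 0 lower (5.89%) at p under 0.05. In 5 members the induced arrays all lay above the uninduced ones, and in 0 all below, where 8.9% and 5.64% of all genes did. All 5 were among the 21 mitosis members, of which 19 differences lay above 0 and 2 below. Of the 17 replication members 9 lay above 0 and 8 below, and of all genes tested 7230 above and 7545 below.

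NUSAP1 was at 10.52, 10.59 and 10.56 in uninduced RhoH, 11.03, 10.97 and 10.92 in induced RhoH, and 11.07, 11.04 and 11.05 in GFP, replicates 1 to 3. The uninduced arrays were the low ones and did not overlap with either other group. The difference with 4-OHT was 0.42 (SE 0.07), or 1.34-fold, with a limma adjusted p of 0.0128. It was lost without uninduced RhoH replicate 3 (adjusted p = 0.0536) and in a fit of the 6 arrays compared (0.0922). NDC80 was at 8.62, 8.92 and 8.94 in uninduced RhoH, 9.27, 9.33 and 9.21 in induced RhoH, and 9.54, 9.54 and 9.63 in GFP. No group overlapped with another, and uninduced RhoH replicate 1 was the lowest array. Its difference with 4-OHT was 0.44 (SE 0.10), or 1.36-fold (adjusted p = 0.0401). This call was lost without any 1 array except induced RhoH replicate 3 (adjusted p = 0.0625 to 0.105), without both RhoH replicate 1 arrays (0.0741), in a fit of the 6 arrays compared (0.168) and with all probe sets tested (0.103).

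TOP2A encodes the topoisomerase that untangles replicated chromosomes, and MKI67 encodes Ki-67, the surface coat of mitotic chromosomes and a common marker of dividing cells. TOP2A was at 10.93, 11.06 and 11.03 in uninduced RhoH, 11.27, 11.22 and 11.31 in induced RhoH, and 11.29, 11.37 and 11.30 in GFP. MKI67 was at 10.90, 10.92 and 10.97, then 11.25, 11.26 and 10.99, then 11.30, 11.36 and 11.24 in the same order. For both, every induced array lay above every uninduced one, although induced RhoH replicate 3 came within 0.02 of the uninduced arrays for MKI67. Neither passed with 4-OHT, at 0.26 (95% interval 0.09 to 0.44, adjusted p = 0.118) for TOP2A and 0.23 (0.03 to 0.44, adjusted p = 0.264) for MKI67. With moderation of the variance by a trend over signal, TOP2A passed (adjusted p = 0.0231).

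**Figure D1:**
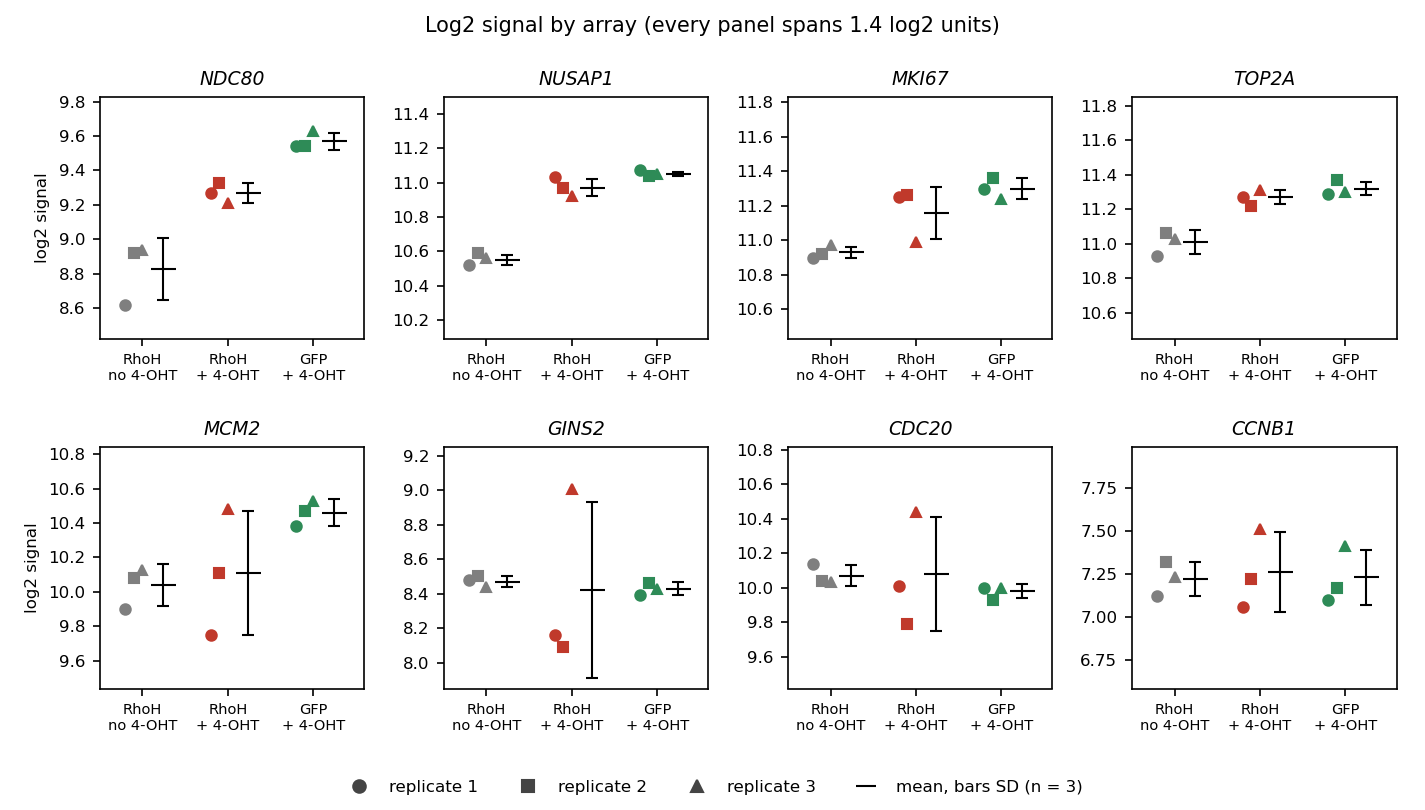
Log2 signal on each array (y axis, 1.4 log2 units in every panel) for the 4 members called in a comparison (upper row) and for MCM2, GINS2, CDC20 and CCNB1 (lower row), by group (x axis). Symbols are replicates, and the dash with bars is the mean ± SD of 3 arrays. NDC80, NUSAP1, MKI67 and TOP2A were lowest in RhoH cells without 4-OHT. Induced RhoH replicate 3 stood above the other induced arrays for the 4 genes of the lower row, which were picked for display. It did so for 26 of the 38 members and for 46.8% of all genes tested.

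Genes of origin licensing and of the replicative helicase differed little with 4-OHT. All 11 lay between -0.09 (MCM6) and 0.08 (MCM2), with 0 calls by limma and 0 at an unadjusted p under 0.05. Of all genes tested, 3.78% were called and 14.5% had an unadjusted p under 0.05, so 0 of so few genes says little. MCM6, a subunit of the MCM ring, was at 10.67, 10.81 and 10.79 without and 10.52, 10.68 and 10.79 with 4-OHT. MCM2, another subunit, was at 9.90, 10.08 and 10.13 without and 9.75, 10.11 and 10.48 with 4-OHT, so the induced arrays spanned the uninduced ones. GINS2, a subunit of the GINS complex, had the widest interval (-0.51 to 0.40), because it was at 8.16, 8.09 and 9.01 in the induced arrays against 8.48, 8.50 and 8.44 in the uninduced ones. Without induced RhoH replicate 3 it was lower by a log2 difference of -0.35 (adjusted p = 0.0372).

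The 6 other replication genes showed no call with 4-OHT by limma (all genes 3.78%), and 0 had an unadjusted p under 0.05 (all genes 14.5%). The sliding clamp PCNA was at 0.01 (95% interval -0.24 to 0.27), and the flap nuclease FEN1, which trims Okazaki fragments, was also at 0.01. RRM2, a subunit of ribonucleotide reductase, was at 9.03, 9.02 and 9.07 without and 9.04, 9.32 and 9.33 with 4-OHT. Its difference of 0.19 (-0.03 to 0.41) was the highest among the replication members, and the groups overlapped through induced RhoH replicate 1. Thymidylate synthase, TYMS, was at 0.07. The transcription factor E2F1 was at 0.10 (-0.13 to 0.33), and the checkpoint kinase CHEK1 at -0.21 (-0.44 to 0.02), the lowest of the replication members.

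The 7 mitotic cyclins and kinases ranged from 0.00 (AURKB, the kinase of the chromosomal passenger complex) to 0.17 (AURKA, the spindle pole kinase). None was called by limma (all genes 3.78%), and 0 had an unadjusted p under 0.05 (all genes 14.5%). AURKA was at 8.03, 8.08 and 8.0 without and 8.21 on each of the 3 arrays with 4-OHT, so the groups did not overlap (adjusted p = 0.388). CDK1 was at 8.17, 8.48 and 8.48 without and 8.48, 8.48 and 8.49 with 4-OHT, and only uninduced RhoH replicate 1 stood apart. Among the 5 spindle checkpoint genes, MAD2L1, which encodes the inhibitor of CDC20, was lowest at -0.22 (95% interval -0.44 to 0.01) and BUB1 highest at 0.08. The centromeric histone CENPA was at 0.01. Among the spindle motors, KIF11, the motor that separates the poles, was at 0.19 (-0.03 to 0.41), KIF20A at 0.14, KIF2C at 0.04, and KIF23 of the central spindle at 0.02. Of the 36 members without a call, 35 had a 95% interval inside ±0.5 on the log2 scale (1.41-fold), GINS2 being the exception.

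**Figure D2:**
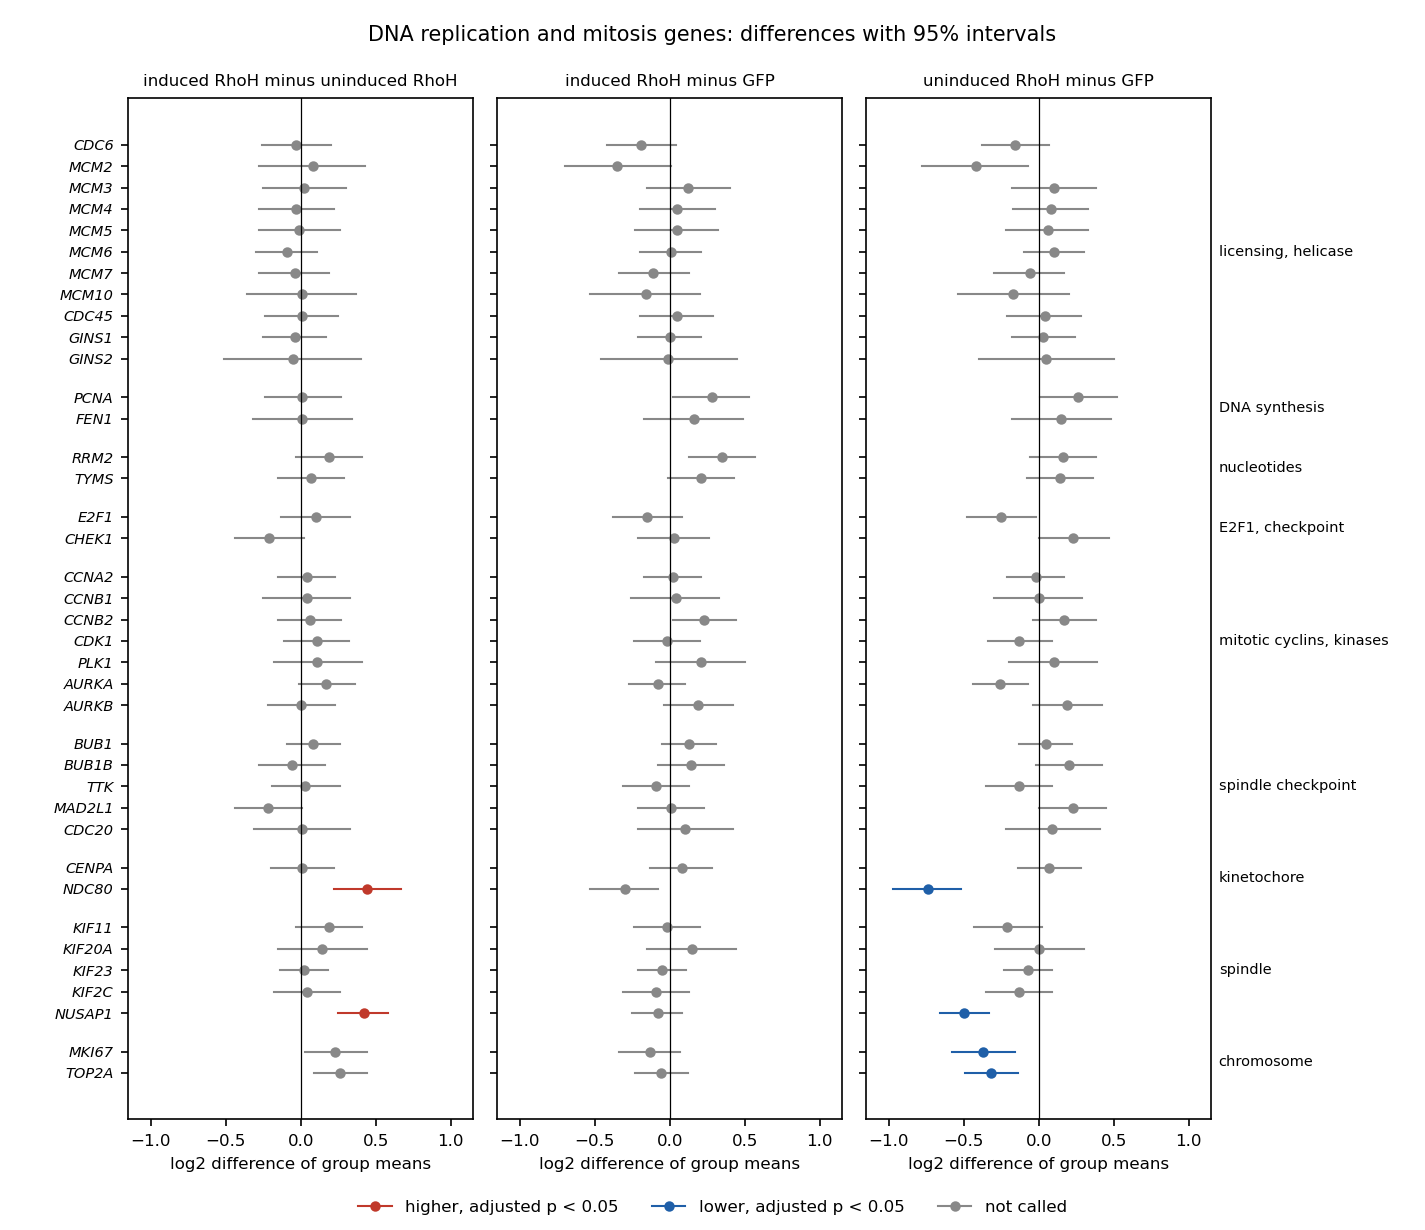
Log2 difference between group means (x axis) for the 38 members (y axis, ordered by role) in the 3 comparisons. Points are limma estimates from 3 arrays a group, lines are 95% intervals, and colour marks an adjusted p under 0.05. NDC80 and NUSAP1 stand to the right in the first panel, no member is coloured in the second, and NDC80, NUSAP1, MKI67 and TOP2A stand to the left in the third.

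Induced RhoH and GFP had the same drug and differed in construct and transduced population. No member of 38 passed by limma, where 4.49% of all genes did (1.74% higher, 2.75% lower), and without adjustment 3 were higher (all genes 7.83%) and 1 lower (8.54%) at p under 0.05. The median difference was 0.01 against 0.03 for all genes. The 3 were RRM2, PCNA and CCNB2, and the 1 was NDC80. RRM2 was at 8.97, 8.82 and 8.86 in GFP, below every induced array, with a difference of 0.35 (SE 0.10, adjusted p = 0.0845). It passed without induced RhoH replicate 1 (0.44, adjusted p = 0.0221), without both RhoH replicate 1 arrays (0.0156), after a further quantile normalization (0.0167) and with array weights (0.0133). NDC80 was lower by -0.30 (SE 0.10, adjusted p = 0.156), and passed without uninduced RhoH replicate 1 (0.0476), an array that enters only the estimate of the spread. PCNA was at 0.28 (95% interval 0.02 to 0.53), and MCM2 at -0.35 (-0.70 to 0.01). NUSAP1 (-0.08), MKI67 (-0.13) and TOP2A (-0.06) had intervals that included 0. The intervals of 32 of the 38 members lay inside ±0.5, and those of MCM2, MCM10, PCNA, RRM2, PLK1 and NDC80 reached past it.

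Uninduced RhoH against GFP compares the 2 control groups, which differ in construct, transduced population and drug. Here NDC80, NUSAP1, MKI67 and TOP2A were lower in uninduced RhoH, and no member was higher. The share called, 4 of 38 (10.5%), was below that of all genes (15.3%, with 6.01% higher and 9.27% lower), and without adjustment 3 were higher (all genes 12.3%) and 7 lower (13.5%) at p under 0.05. All 4 were mitosis members (4 of 21), and 0 of the 17 replication members passed by limma, with 2 higher and 2 lower before adjustment. This comparison uses the same uninduced arrays as the one with 4-OHT, so the values of the 4 genes in both are not independent. NDC80 had the largest difference among the members, at -0.74 (SE 0.10, adjusted p = 0.000696), followed by NUSAP1 at -0.50 (SE 0.07, adjusted p = 0.00123), and both kept their calls in each of the 19 alternatives. MKI67 was lower by -0.37 (adjusted p = 0.0237) and TOP2A by -0.32 (adjusted p = 0.0210). MKI67 lost its call without any 1 of the 6 arrays compared (adjusted p = 0.0568 to 0.101) and with all probe sets tested (0.0533), and TOP2A without uninduced RhoH replicate 3 or any 1 GFP array (0.0558 to 0.0946).

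Members without a call in that comparison lay on both sides of 0. The uninduced arrays all lay above GFP for 10 members and all below for 11, where 19.2% and 18.1% of all genes did so. MCM2 was at 10.38, 10.47 and 10.53 in GFP, above every uninduced array. Its difference of -0.42 (SE 0.16, adjusted p = 0.119) passed without induced RhoH replicate 1 or 3 (0.0333 and 0.0301), 2 arrays that enter only the estimate of the spread, when only the 6 arrays compared were fitted (0.0136), with array weights (0.00685) and with the replicate number as a block (0.0385). AURKA was at -0.26 (adjusted p = 0.0689), passing with array weights (0.013), and E2F1 was at -0.25 (adjusted p = 0.148). In the other direction PCNA was at 0.26 (adjusted p = 0.181), passing without induced RhoH replicate 3 (0.0432), with the 6 arrays compared (0.0482) and with array weights (0.0344). CHEK1 and MAD2L1 were each at 0.23 (adjusted p = 0.191 and 0.187), and both passed with array weights (0.00669 and 0.0128). CCNB1, the cyclin that drives entry into mitosis, was at 0.00 (adjusted p = 0.991), with 7.12, 7.32 and 7.23 in uninduced RhoH and 7.10, 7.17 and 7.41 in GFP.

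Replication genes were spread between the arrays of each RhoH group. All genes tested were spread too by their SD, but their median moved less between these arrays. Set against each gene's mean over the 9 arrays, the 17 replication members had a median of -0.18, -0.01 and 0.24 on induced RhoH replicates 1, 2 and 3, and of -0.07, 0.01 and 0.10 on the uninduced ones. On the GFP arrays it was -0.04, -0.02 and -0.02. For all genes tested the median was -0.02, 0 and 0.05 on the induced and -0.01, 0.01 and 0.01 on the uninduced arrays. In induced RhoH, 12 of the 17 were highest in replicate 3 and 13 lowest in replicate 1, and in uninduced RhoH 12 and 14. Of all genes tested, 46.8% and 46% were so in induced RhoH and 31.8% and 52.1% in uninduced RhoH, and the difference from these shares was not tested. The median SD of a replication member within a group was 0.036 in GFP, 0.115 in uninduced and 0.179 in induced RhoH. For all 38 members it was 0.044, 0.093 and 0.155 in the same order. Over all genes tested it was 0.072, 0.132 and 0.161, so above the replication members in GFP and uninduced RhoH and below them in induced RhoH. The mitosis members moved less, from 0.00 to 0.11 on the induced arrays and from -0.07 to 0.00 on the uninduced ones. With induced RhoH replicate 3 left out the median difference of the 38 members with 4-OHT was -0.039, and with induced RhoH replicate 1 left out it was 0.102. With array weights it was -0.021, so its sign rests on how these arrays enter.

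**Figure D3:**
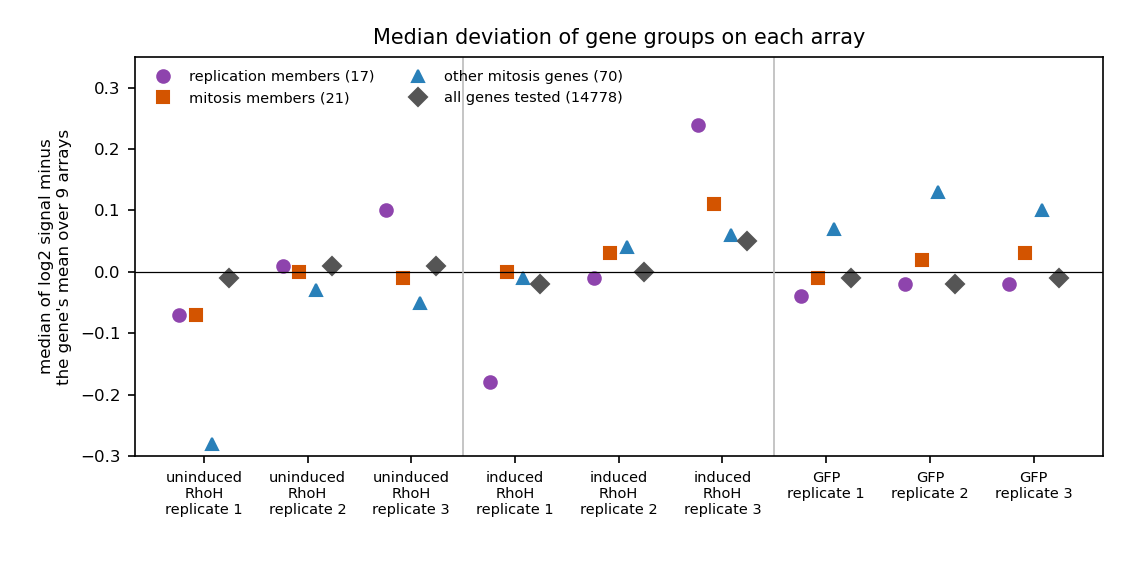
Median over each gene group of the log2 signal minus the gene's mean over 9 arrays (y axis) on each of the 9 arrays (x axis). The replication members (circles) run from -0.18 to 0.24 on the induced RhoH arrays, while the other mitosis genes (triangles) lie at -0.28 on uninduced RhoH replicate 1 and between 0.07 and 0.13 on the GFP arrays.

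Further genes of mitosis, of the spindle, the kinetochore, cohesion and the control of mitotic entry, were lowest in uninduced RhoH in most cases. Of 90 further mitosis genes listed, 70 were measured. With 4-OHT 9 of them were higher and 0 lower in RhoH cells (12.9%, all genes 3.78%), with a median difference of 0.14 against 0.00 for all genes. In uninduced RhoH against GFP 5 were higher and 23 lower (40.0%, all genes 15.3%), with a median of -0.21 against 0.05. In induced RhoH against GFP 2 were higher and 3 lower (7.14%, all genes 4.49%), with a median of -0.06. Uninduced RhoH had the lowest of the 3 group means in 49 of the 70, and in 12 of the 21 mitosis members and 3 of the 17 replication members, where 30.5% of all genes did. Bulk RNA cannot tell a smaller share of cells in mitosis from less of these transcripts in each cell. The 9 became 2 to 6 when 1 array was left out, with 0 to 1 lower, and 4 without both RhoH replicate 1 arrays, and the 23 became 17 to 26 and 22. In a fit of the 6 arrays compared the 9 became 1, and with all probe sets tested 2. The 5 became 2 without uninduced RhoH replicate 2 or 3 or any 1 GFP array, and 3 without induced RhoH replicate 2. Uninduced RhoH replicate 1 was the lowest array for this list, at a median of -0.28 from the gene means against -0.03 and -0.05 for replicates 2 and 3. Without it the median difference was 0.07 with 4-OHT and -0.12 for uninduced RhoH against GFP, and over all arrays left out in turn it ran from 0.07 to 0.207 and from -0.28 to -0.12.

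WEE1, the kinase that holds CDK1 inactive until mitosis, had the largest change of the further mitosis genes in both. It was at 10.37, 10.62 and 10.60 in uninduced RhoH, 11.33, 11.36 and 11.33 in induced RhoH, and 11.64, 11.75 and 11.58 in GFP, without overlap between any groups. It rose by 0.81 with 4-OHT (SE 0.09, 1.76-fold, adjusted p = 0.00104) and was lower by -1.13 in uninduced RhoH than in GFP (adjusted p = 2.69e-05), and both calls held in the 19 alternatives. STAG2 of cohesin (0.52), CKAP2 of the spindle (0.50) and STIL of centriole assembly (0.46) followed among the called genes with 4-OHT. STAG2 lost its call without any 1 of 6 arrays (uninduced RhoH replicate 2, induced RhoH replicate 1 or 2, or any GFP array; adjusted p = 0.0523 to 0.0719), STIL without any 1 array but uninduced RhoH replicate 2 (0.0524 to 0.10), and CKAP2 without induced RhoH replicate 2 (0.05 after rounding) or without both RhoH replicate 1 arrays (0.0525). STIL also lost it without both (0.0824). In a fit of the 6 arrays compared all 3 lost their calls (0.125 for STAG2, 0.0964 for CKAP2 and 0.14 for STIL), and with all probe sets tested STAG2 (0.0679) and STIL (0.0907) did.

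SGO1, shugoshin, which guards cohesion at centromeres, was at 9.54, 9.58 and 9.60 in uninduced RhoH, 10.11, 10.06 and 9.84 in induced RhoH, and 10.56, 10.52 and 10.58 in GFP. It was lower than GFP by -0.98 in uninduced (adjusted p = 5.55e-05) and by -0.55 in induced RhoH (adjusted p = 0.00726). CKAP2L (-0.76) and the chromosome-bound motor KIF4A (-0.67) were also lower in uninduced RhoH than in GFP. Against the run of the list, SKA3, a subunit of the SKA complex at kinetochores, was higher in uninduced (0.75, adjusted p = 7.93e-05) and induced RhoH (0.49, adjusted p = 0.00444), and so was the mitotic kinase PBK (0.60 and 0.61). SGO1, SKA3 and PBK kept these calls in the 19 alternatives, as did CKAP2L and KIF4A. CDCA8 and SMC2 were each lower than GFP in induced RhoH by -0.43, and lost their calls without any 1 of 5 and 8 arrays (adjusted p up to 0.108 and 0.176). ANAPC1 (0.32) and MAD1L1 (0.31) were higher in uninduced RhoH than in GFP and lost their calls without any 1 of 5 and 7 arrays (up to 0.133 and 0.176). With all probe sets tested these 4 genes lost their calls too (0.0568 to 0.0914), and MAD1L1 did so with moderation by a trend (0.0587) and without both RhoH replicate 1 arrays (0.0795).

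Of 60 further replication genes listed, 25 were measured. With 4-OHT 1 was higher and 0 lower (4%, all genes 3.78%), and in uninduced RhoH against GFP 1 was higher and 3 lower (16%, all genes 15.3%). In induced RhoH against GFP 0 passed by limma (all genes 4.49%). Before adjustment 0 were higher (all genes 7.83%) and 1 lower (8.54%) there at p under 0.05. The 1 higher with 4-OHT was the histone chaperone gene ASF1B, from 9.52, 9.74 and 9.77 to 10.04, 10.17 and 10.50. Its difference of 0.56 (SE 0.12, adjusted p = 0.0355) was lost without any 1 of 7 arrays (0.0650 to 0.0971, all but induced RhoH replicates 1 and 3), with the 6 arrays compared (0.157) and with all probe sets tested (0.0942). Against GFP, uninduced RhoH was lower in ASF1B (-0.60), in CLSPN, the checkpoint mediator claspin (-0.68), and in MCMBP (-0.32), and higher in UHRF1, which maintains DNA methylation after replication (0.54). ASF1B kept that call in the 19 alternatives. CLSPN lost it without uninduced RhoH replicate 1 or any GFP array (0.0586 to 0.0760), and MCMBP and UHRF1 without any 1 of 6 arrays each (up to 0.102 and 0.15). With all probe sets tested these 3 lost it as well (0.0523 to 0.0936).

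**Figure D4:**
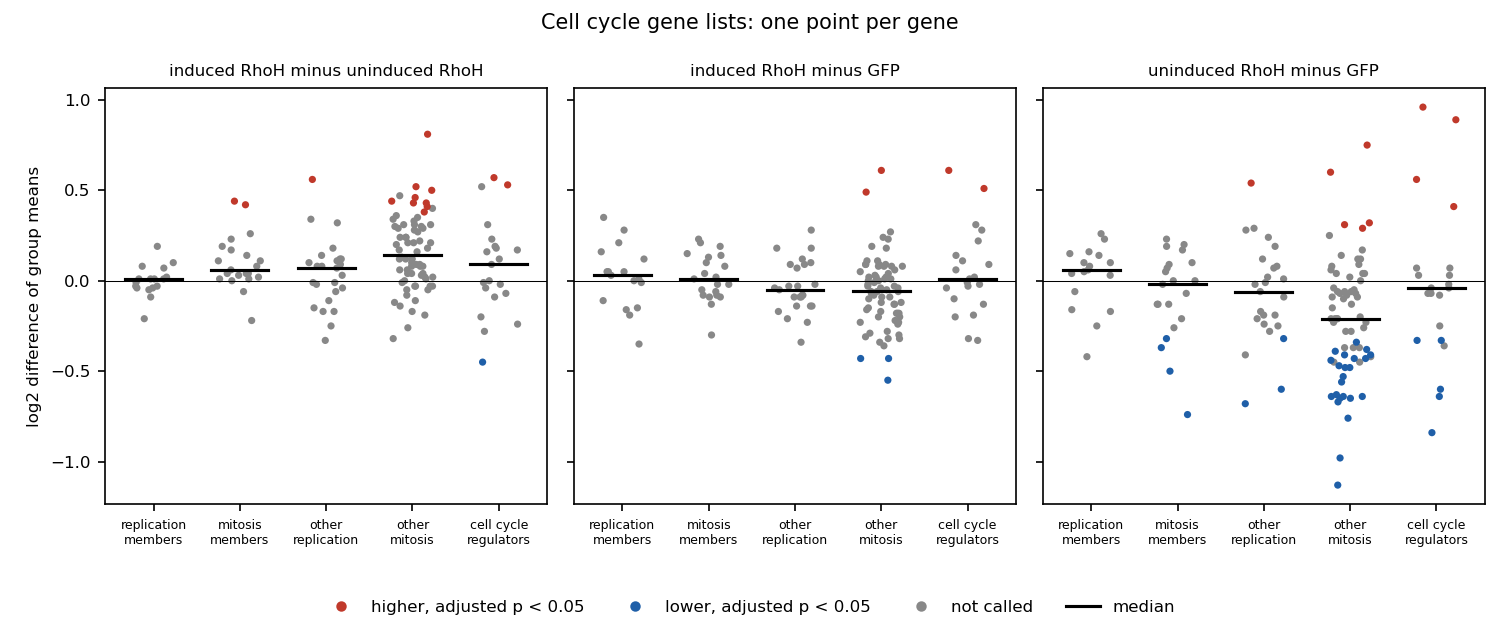
Log2 difference between group means (y axis) of each gene in 5 lists (x axis), in the 3 comparisons. Each point is a gene, black lines are medians, and colour marks a limma adjusted p under 0.05. The 70 other mitosis genes have a median of 0.14 in the first panel and -0.21 in the third, which became 0.07 and -0.12 without uninduced RhoH replicate 1. The replication members have medians of 0.01, 0.03 and 0.06 and reach from -0.42 to 0.35.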

How the data were processed

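The authors deposited 1 table of log2 signals for 43550 probe sets on 9 arrays. RMA, Affymetrix Power Tools and limma are named in the submitters' processing notes, without version numbers. In RMA, background is subtracted by a model, arrays are forced to 1 distribution and probes are summarised as log2 values, which compresses low signals and hides shifts shared by all genes. The platform annotation named 15659 probe sets. All 15659 Entrez identifiers matched RefSeq, and 1 probe set per gene, the highest by mean, left 14778 genes. The 3 group means were fitted to all genes with limma 3.58.1 in R 4.3.3 (6 residual and 3.86 prior degrees of freedom), with Benjamini-Hochberg adjustment over all 14778. A call is an adjusted p under 0.05. The exact permutation test over 3 against 3 arrays cannot go below 0.1 and was not used. Intervals are 95% limits of the fit. Members lay between percentiles 63 (CCNB1) and 99.1 (TOP2A) of mean signal over all genes tested. No group mean of the further mitosis genes lay below 6.27 (PTTG1, uninduced RhoH). Shares and SDs over all genes thus include dimmer genes, and the part of signal level in these contrasts was not tested. The fit was tested on simulated data. Members, lists, motifs and alternatives were chosen with earlier results of these data known. Of the measured genes, those given with single values are the called members, the highest and lowest member of each role with 4-OHT, and up to 4 called genes per further list, comparison and direction, besides others chosen after their values were seen. No genome build is named for the arrays, so only promoter windows carry coordinates. The labels call the samples biological replicates and do not say whether cultures were separate transductions.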

Additional observations from a re-analysis of the deposited data

How the results depend on the processing

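Each result was recomputed under 19 alternatives, 9 of which leave out 1 array. With 4-OHT in RhoH cells, the 558 genes called became 190 when only the 6 arrays compared were fitted, 314 with all probe sets tested, 953 after quantile normalization again, 950 with array weights, and 304 to 666 without 1 array. The 2 members called higher became 0 with the 6 arrays compared, 1 with all probe sets tested, 1 without both RhoH replicate 1 arrays and 0 to 2 without 1 array, and the 0 lower became 0 to 1. The median of the members, 0.029, ran from -0.039 to 0.102 without 1 array. For induced RhoH against GFP, 664 genes became 403 with all probe sets tested, 1176 with array weights and 279 to 861 without 1 array, and 1 member (RRM2) was higher after quantile normalization again, with array weights and without both RhoH replicate 1 arrays, against 0 to 1 higher and 0 to 1 lower without 1 array. For uninduced RhoH against GFP, 2258 genes became 4326 with array weights and 1450 to 2670 without 1 array. There 1 member was higher with only the 6 arrays compared (PCNA) and 5 with array weights, 0 to 1 without 1 array, and the 4 lower members became 2 to 5 without 1 array and 6 with array weights. Samples with the same replicate number deviated together with correlations of 0.07 to 0.54 between the RhoH groups, 0.01 to 0.15 between induced RhoH and GFP and -0.03 to 0.15 between uninduced RhoH and GFP. Between the RhoH groups, unlike numbers gave -0.5 to 0.4. The replicate 1 arrays of these groups stood at 0.54 with each other, and each below 0 with replicates 2 and 3 of the other group. In the main fit the numbers were not taken to pair the samples, and not every array correlated best with its own number. With the replicate block the counts were 684, 820 and 2558 genes, with 2 higher, 0 and 5 lower members. The cause of these changes was not tested. No scaling moved the median of all genes by over 0.1.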

Other observations

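Among 31 regulators of the cycle listed, 21 were measured, and E2F7, E2F8 and CDK6 changed with 4-OHT in RhoH cells (2 higher and 1 lower, 14.3%, all genes 3.78%). E2F7 and E2F8 encode E2F factors known to repress replication genes. E2F8 was at 9.19, 9.31 and 9.38 in uninduced RhoH, 9.80, 9.89 and 9.79 in induced RhoH, and 9.55, 9.55 and 9.52 in GFP. Induced RhoH was the highest group, but E2F8 did not pass by limma in induced RhoH against GFP. Its difference with 4-OHT was 0.53 (SE 0.08, limma adjusted p = 0.00596), and it was lost in a fit of the 6 arrays compared (0.0537). E2F7 rose by 0.57 (adjusted p = 0.0110), and lost its call without uninduced RhoH replicate 3 (0.0543) and with the 6 arrays compared (0.0591). CDK6, a partner of the D-type cyclins, fell by 0.45 (adjusted p = 0.0261), and lost its call without any 1 of 6 arrays (0.0558 to 0.103; uninduced RhoH replicate 2 or 3, induced RhoH replicate 1 or any GFP array), with the 6 arrays compared (0.13) and with all probe sets tested (0.0708).

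Against GFP, CDK6 was higher in uninduced RhoH (0.96, adjusted p = 8e-05) and in induced RhoH (0.51, adjusted p = 0.0128), the latter call being lost without any 1 GFP array (up to 0.0691). CDK4, which shares its role, was at 11.44, 11.44 and 11.38 in uninduced RhoH, 11.17, 11.10 and 11.27 in induced RhoH and 10.89, 10.85 and 10.85 in GFP. It was higher in uninduced RhoH than in GFP by 0.56 (adjusted p = 0.000859). E2F2 was lower there by -0.84 (adjusted p = 0.00633) and LIN54, a subunit of the complex that binds CHR elements, by -0.64 (adjusted p = 0.000782). In all, 4 regulators were higher and 5 lower in uninduced RhoH than in GFP (42.9%, all genes 15.3%). The 5 became 3 without uninduced RhoH replicate 2 or 3 or without GFP replicate 1 or 2. RB1 (-0.33) lost its call without any 1 of 5 arrays (0.0506 to 0.0828; uninduced RhoH replicate 2 or 3 or any GFP array), and TFDP1 (0.41) without GFP replicate 1 (0.0597). Against GFP, 2 were higher and 0 lower in induced RhoH (9.52%, all genes 4.49%), which became 0 to 3 and 0 to 1 without 1 array, with 0 higher without GFP replicate 1, 2 or 3. The other of the 2 was TFDP2 (0.61, adjusted p = 0.0271), which lost its call without any 1 of 5 arrays (up to 0.116; induced RhoH replicate 1 or 2 or any GFP array) and with all probe sets tested (0.0651).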
